A study of Mus musculus with 4 samples.

Results

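Germline genes are genes that are used in germ cells and their meiosis and are silent in most other tissues. The 40 mouse genes described here were chosen by name as known members of this class, and all 40 were found among the 21887 protein-coding genes with a position in the RefSeq gene table of GRCm38 (mm10). They comprise 6 genes of germ cell specification and RNA regulation, 13 of the piRNA pathway, 6 of the synaptonemal complex, 6 for meiotic cohesin, HORMA proteins and recombination, 7 of spermatocytes and spermatids, and 2 of the zona pellucida. Every listed region that overlapped a gene body or the 5 kb on either side was taken, and members with a region at least 20 percentage points higher or at least 10 points lower in the mutant were listed.

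The cells were sorted hair matrix keratinocytes, the dividing epithelial cells of the hair bulb, taken as primary cells at postnatal day 4.5. The groups were WT (2 libraries) and Tet2/Tet3 DKO, Krt14-Cre (2 libraries), a double knockout whose Cre is driven by the promoter of Krt14, a keratin gene of basal epithelium. The labels do not give the sex of the animals, whether the WT carried Cre, or whether replicate libraries are separate animals. DNA methylation was read by whole-genome bisulfite sequencing, which scores 5-methylcytosine and 5-hydroxymethylcytosine alike, so every level is the sum of both.

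As background, the promoters of many germline genes hold CpG-rich sequence and are methylated in the embryo around implantation by the de novo methyltransferases. They stay methylated in somatic cells, unlike most other CpG-rich promoters, and are demethylated in primordial germ cells. Repressor complexes that contain E2F6, MGA and MAX are known to bind several of them, at E2F sites and at E-boxes. TET enzymes oxidise 5-methylcytosine, which is a step towards its removal, and were found in other work to act at enhancers and at some germline promoters.

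All levels below are group means from the authors' deposited table, which lists 484555 regions for this comparison, and a difference is the DKO level less the WT level, in percentage points. The table holds no value per library, no read counts and no p-value, so the depth is unknown, no replicate check was possible and no difference was tested. The spread estimate beside a region is the authors' own, and over the regions of the germline genes it had a median of 3.64 points. The header does not name the groups. Group 1 was taken to be WT because the title names it first, and all signs would flip if it were not. Only positions past a bound on the authors' statistic are listed, and no extreme statistic lay between -4.02 and 1.53. All 122576 regions with a negative statistic were higher in the DKO, and 110784 of the 361979 with a positive statistic were higher too. Of the positions between the first and the last listed region of a germline gene, a median of 29.8% were listed, and the level of the others is unknown. Tet2 held 29 listed regions and Tet3 43 in the same windows, which do not check the deletion.

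The promoters are shown first because the results turn on them. RefSeq promoter windows of GRCm38.p6, from 250 bases before to 50 bases after the transcript start, were matched for 35 of the 40 genes. The 7 printed here are the windows of Mael, Tex12, Sycp3 and Ddx4, whose listed regions were highly methylated, and of Dazl, Rec8 and Smc1b, whose regions were at intermediate or low levels. Each is written 5′ to 3′ in the sense of the gene, with each CpG in capitals. They are Mael on the minus strand (chr1:166238695-166238994), Tex12 minus (chr9:50561219-50561518), Sycp3 plus (chr10:88459337-88459636), Ddx4 minus (chr13:112652261-112652560), Dazl minus (chr17:50293571-50293870), Rec8 plus (chr14:55617916-55618215) and Smc1b minus (chr15:85131908-85132207).
Mael: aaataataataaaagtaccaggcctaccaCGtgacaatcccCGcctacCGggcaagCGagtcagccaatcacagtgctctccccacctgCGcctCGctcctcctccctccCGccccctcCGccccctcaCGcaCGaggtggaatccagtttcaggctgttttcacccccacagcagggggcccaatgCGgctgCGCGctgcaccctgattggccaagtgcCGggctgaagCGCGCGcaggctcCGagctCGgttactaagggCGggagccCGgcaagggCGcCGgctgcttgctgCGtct
Tex12: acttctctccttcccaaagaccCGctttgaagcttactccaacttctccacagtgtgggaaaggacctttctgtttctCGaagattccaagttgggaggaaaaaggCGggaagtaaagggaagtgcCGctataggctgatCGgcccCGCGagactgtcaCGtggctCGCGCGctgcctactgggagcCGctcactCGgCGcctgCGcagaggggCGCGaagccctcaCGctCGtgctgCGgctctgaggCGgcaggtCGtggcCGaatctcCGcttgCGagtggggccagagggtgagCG
Sycp3: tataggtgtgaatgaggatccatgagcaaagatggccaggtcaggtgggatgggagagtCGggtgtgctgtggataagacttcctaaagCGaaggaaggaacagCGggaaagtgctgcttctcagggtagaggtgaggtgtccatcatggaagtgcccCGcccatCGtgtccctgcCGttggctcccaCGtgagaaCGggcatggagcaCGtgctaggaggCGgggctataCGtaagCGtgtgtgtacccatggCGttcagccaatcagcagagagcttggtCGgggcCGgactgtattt
Ddx4: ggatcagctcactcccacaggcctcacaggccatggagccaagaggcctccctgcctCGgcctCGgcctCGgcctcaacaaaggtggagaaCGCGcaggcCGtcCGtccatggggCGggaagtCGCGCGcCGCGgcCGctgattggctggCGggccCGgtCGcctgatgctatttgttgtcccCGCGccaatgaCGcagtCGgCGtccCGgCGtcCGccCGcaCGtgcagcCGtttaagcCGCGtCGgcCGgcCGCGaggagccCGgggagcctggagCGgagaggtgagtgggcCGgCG
Dazl: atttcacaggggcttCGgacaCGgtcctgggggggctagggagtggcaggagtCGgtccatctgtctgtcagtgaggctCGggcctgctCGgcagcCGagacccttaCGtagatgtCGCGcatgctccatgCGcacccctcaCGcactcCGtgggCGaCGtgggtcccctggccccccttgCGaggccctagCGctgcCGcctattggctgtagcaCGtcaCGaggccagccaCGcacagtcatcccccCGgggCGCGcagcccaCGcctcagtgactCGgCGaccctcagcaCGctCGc
Rec8: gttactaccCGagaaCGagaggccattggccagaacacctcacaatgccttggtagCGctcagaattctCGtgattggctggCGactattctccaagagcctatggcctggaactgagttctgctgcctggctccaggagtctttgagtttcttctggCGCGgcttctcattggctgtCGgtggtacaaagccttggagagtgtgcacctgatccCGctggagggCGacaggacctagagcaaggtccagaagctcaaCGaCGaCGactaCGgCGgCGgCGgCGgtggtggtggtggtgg
Smc1b: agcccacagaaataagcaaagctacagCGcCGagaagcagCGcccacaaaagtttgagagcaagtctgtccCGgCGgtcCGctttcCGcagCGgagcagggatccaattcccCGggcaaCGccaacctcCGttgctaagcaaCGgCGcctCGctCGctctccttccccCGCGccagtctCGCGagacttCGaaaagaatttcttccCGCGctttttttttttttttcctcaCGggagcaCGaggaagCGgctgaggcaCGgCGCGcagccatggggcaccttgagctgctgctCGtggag

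The window of Ddx4 held 38 CpGs, that of Smc1b 29, Dazl 28, Tex12 26, Mael 24, Rec8 18 and Sycp3 15. Over the 35 germline genes the median was 18 CpGs in the first window of each gene (interquartile range 11 to 23.5, range 0 to 48), and over 17492 protein-coding genes it was 13 (3.75 to 24). The ratio of observed to expected CpGs had a median of 0.69 in the germline genes and 0.58 in all genes. The letters TCCCGC, or GCGGGA on the other strand, the core of an E2F site, occurred in 16 of the 35 windows (45.7%) and in 25.7% of all windows. The E-box CACGTG, which reads the same on both strands, occurred in 14 (40.0%) and in 7.90% of all windows. Both occurred in 9 windows (25.7%), against 2.74% of all windows. The 9 were those of Mael, Slc25a31, Hormad1, Sycp1, Zp3, Stag3, Tex12, Sycp3 and Ddx4, and the 2 motifs did not overlap in any of them. In the windows of 42 other germline genes, from the comparison list given at the end, the shares were lower. They were 26.2% for the E2F letters, 19.0% for the E-box and 7.14% for both. These backgrounds were not matched for CpG content. In the sequences above, Mael has TCCCGC from base 108 and GCGGGA from base 262 with the E-box from base 28, and Tex12, Sycp3 and Ddx4 each have GCGGGA, from bases 106, 104 and 115. The 7 printed windows do not stand for all. Of the promoters with a listed region, both motifs occurred in Mael, Tex12, Sycp3, Ddx4 and Zp3, at 74.5% to 88.0% in WT cells. Both also occurred in Stag3, at 16.1%. Neither occurred in Tdrd12, Tex101, Syce1 and Piwil4, at 78.5% to 90.3%, or in Dazl, at 52.1%. Tdrd9, Tdrd1, Rec8 and Smc1b held only 1 of the 2 motifs. A match of letters describes the sequence only and was not tested as a site or against the level.

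A listed region overlapped the promoter window of 15 of the 35 genes, against 6246 of 17492 protein-coding genes. Of the 15 regions, 11 (73.3%) were methylated to at least 60% in WT cells. The same was true of 8.28% of the 6246 protein-coding genes with a listed region over this window. Among windows of at least 10 CpGs the counts were 10 of 14 germline genes (71.4%) and 87 of 4860 genes (1.79%). The median WT level was 79.9% over the 15 germline regions and 3.41% over all 6246. Each level is a mean over the whole region, which often reaches beyond the window. The overlap was 124 of 385 bp in Tdrd12, 125 of 745 bp in Syce1 and 300 of 1781 bp in Ddx4. The bounds of 60% and 10 CpGs were set after the values were seen, and the levels at the other 20 promoters are unknown.

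**Figure D1:**
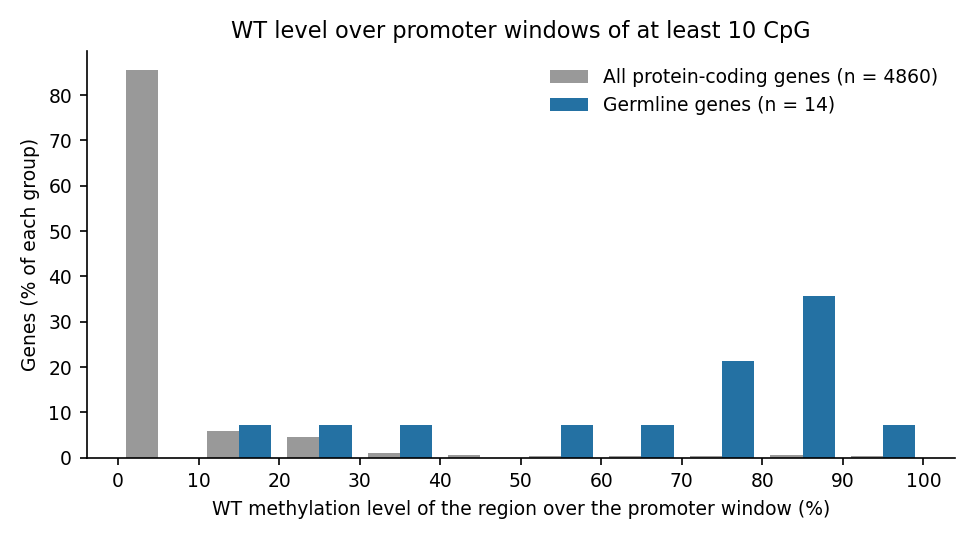
WT methylation level (x axis, percent) of the listed region over promoter windows of at least 10 CpGs, in bins of 10 points, as the percent of genes in each bin (y axis) for the 14 germline genes and for all 4860 protein-coding genes. Most of all genes lie under 10%, and 10 of the 14 germline genes lie at or above 60%.

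These promoters were also methylated in the DKO. The DKO median was 77.1% over the 15 regions, the median difference was -1.37 points (range -12.2 to 4.84), and 12 of 15 differed by less than 5 points. So did 5297 of the 6246 protein-coding genes with a listed region over this window. With at least 10 CpGs the counts were 11 of 14 germline genes and 4493 of 4860 genes, so small differences were not particular to germline promoters. No germline promoter region was 20 points higher, against 5.88% of all genes with a listed region there and 0.967% of those with at least 10 CpGs, so the count of 0 is near the background. Of the 15 regions, 7 began above 80% in WT cells and could not be 20 points higher. A decrease of 10 points was found in 1 of the 15, against 3.14% of all genes. Tdrd12, a piRNA factor of germ cells, was at 90.3% in WT cells and 90.4% in DKO cells over 48 positions. Mael, which builds the nuage where piRNAs are made, was at 85.1% and 86.5% over 110 positions. Syce1, of the central element of the synaptonemal complex, was at 84.7% and 84.3% over 80 positions. Tex101, a surface protein of germ cells, was at 86.9% and 87.2% over 80 positions. All 4 differed by less than their spread estimates of 3.35 to 5.18 points.

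The other promoters above 60% in the authors' deposited table were Tex12, at 88.0% and 86.2% in a region that also overlaps Il18, Zp3 at 81.0% and 77.1%, Tdrd9 at 79.9% and 82.3%, and Piwil4 at 78.5% and 83.3%. Sycp3, of the lateral element, was at 74.5% in WT cells and 68.7% in DKO cells over 64 positions, and Tdrd1, a Tudor protein that binds PIWI proteins, at 67.6% and 70.1% over 110. The region of Tdrd1 overlaps its promoter windows by 21 and 87 bp and lies mostly downstream of the start. Ddx4, the RNA helicase Vasa, was at 86.0% and 76.1% over 136 positions, a difference of -9.91 points with a spread estimate of 3.55. It lay just short of the 10 points asked for a loss. Ddx4 and Sycp3 were the largest decreases among the regions that began above 60%.

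The remaining 4 promoters were lower in both groups. Dazl, an RNA-binding protein needed for germ cell development, was at 52.1% in WT cells and 47.8% in DKO cells over 116 positions, but this region overlaps the window by 19 bp and lies mostly downstream of it. Rec8, the meiotic kleisin, was at 37.1% and 24.9% over 61 positions (difference -12.2, spread estimate 4.01), the largest decrease of the 15. Smc1b, a meiotic cohesin subunit, was at 22.7% and 21.4% over 98 positions in a region that also overlaps the neighbouring gene Ribc2. Stag3, a further meiotic cohesin subunit, was at 16.1% and 14.0% over 38 positions. This Stag3 region lies 7943 to 8127 bp after the start given by the gene table, and was placed in the gene body. All 4 lay between 16.1% and 52.1% in WT cells, against the median of 3.41% over all genes.

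**Figure D2:**
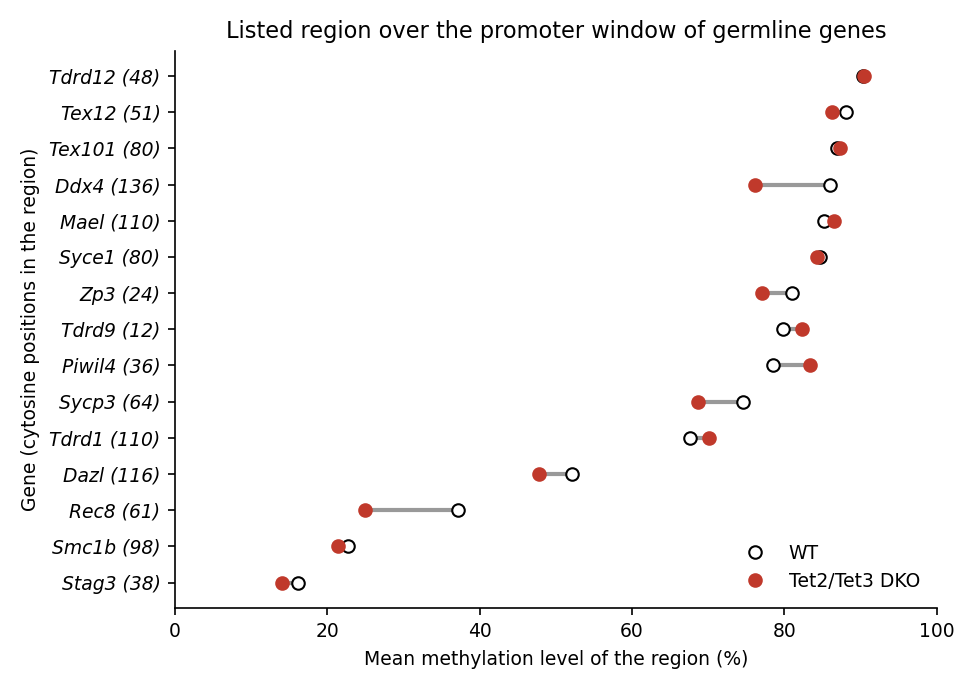
Methylation level (x axis, percent) in WT and DKO of the listed region over the promoter window of each of the 15 germline genes, ordered by WT level, as the authors' group means with no replicate error. WT and DKO lie within 5 points of each other in 12 genes, and in 5297 of 6246 protein-coding genes with a listed region there. Rec8, Ddx4 and Sycp3 show the largest decreases.

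At gene ends, taken as 1 kb on either side of a gene's start and end, the listed regions of germline genes had higher median levels than those of all genes, and in gene bodies the medians lay within 4 points of each other. In the authors' deposited table the 50 regions at an end of a germline gene had a median of 77.4% in WT cells and 77.1% in DKO cells. At the ends of all genes the medians were 46.6% and 66.9% over 26173 regions. At starts alone the germline medians were 74.5% and 79.7% over 31 regions in 24 genes, against 23.4% and 32.7% over 12328 regions of all genes. Inside gene bodies the germline medians were 75.8% in WT cells and 78.1% in DKO cells over 308 regions, and those of all genes were 78.7% and 81.4%. The median difference of the germline regions was 0.232 points at ends and 0.608 points in bodies, both under the spread estimate. Over all genes it was 0.161 points at ends and 0.681 points in bodies, close to the germline values. At starts alone it was 0.171 points in germline genes and 0.101 points over all genes. The WT and DKO medians at the ends of all genes thus lay further apart than the median difference of their regions. These lists of regions were selected by their statistic, so a median over them does not describe the ends or bodies as a whole.

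**Figure D3:**
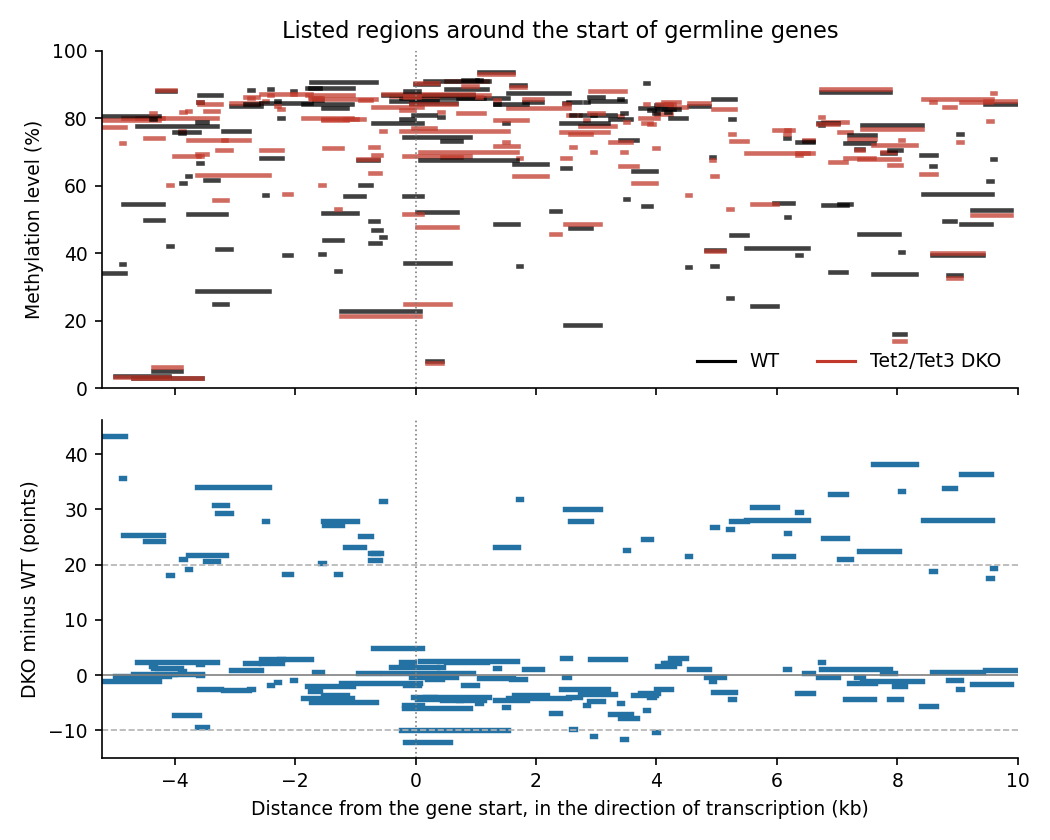
Listed regions around the start of the germline genes (x axis, distance from the start in kb along transcription), with the WT and DKO methylation level (percent) in the upper panel and the DKO minus WT difference (percentage points) in the lower one. Each bar is 1 region at its group mean, and the gains of 20 points or more lie to either side of the start and not over it. Of all genes with a listed region over the promoter window, 5.88% were 20 points higher there.

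Within the windows, 31 of the 40 germline genes held a region at least 20 points higher in the DKO (77.5%), against 64.4% of all protein-coding genes. The germline genes had a median length of 24899.5 bp and 8.5 listed regions per gene, and all genes had 17169 bp and 6. Of their 441 listed regions, 110 (24.9%) were at least 20 points higher, against 22.9% of all listed regions and 26.5% of those in the windows of all genes. Regions of that size covered a mean of 1.73% of the germline windows (median 1.25) and 2.67% of all windows (1.29). Read against these backgrounds, the germline genes lay near or below all genes by share of regions and by coverage, and above them by the count of genes with a gain. Losses of at least 10 points lay in 3 genes (7.5%, against 8.5% of all genes) and in 6 regions (1.36%, against 2.54% of all listed regions and 1.31% of those in the windows of all genes).

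The 110 gains began at intermediate levels. The WT level had a median of 48.3% with quartiles at 38.5% and 54.3%, and the DKO level had a median of 74.9% with quartiles at 68.0% and 81.2%, and 101 of them began between 20% and 60%. All listed gains of this size had medians of 45.6% and 76.3%. The germline gains were short, with a median of 244 bp and 8 positions, against 345 bp and 11 positions for all listed gains. Fewer than 10 positions were held by 63 of the 110. The counts of 101 and 63 were not made over all listed gains. Strands of a CpG are counted mostly apart, since 89.2% of all regions of 2 positions are 2 bp wide. By place, 77 lay in the gene body, 21 in the flanks, 7 at a start and 5 at the other end. Gains made up 12 of the 50 end regions, 77 of the 308 body regions and 21 of the 83 flank regions, and none of the 110 overlapped a promoter window. Regions with a negative statistic, 120 in all, were at least 17.6 points higher, and no other region exceeded 8.81 points, so no germline region lay between these values. The authors' spread estimates of the 110 gains ran from 3.23 to 5.00 points. The values nearest the bound of 20 were 20.006 (Tex14) and 20.2 (Sycp2) inside and 19.9 (Hormad2) and 19.4 (Asz1) outside.

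**Figure D4:**
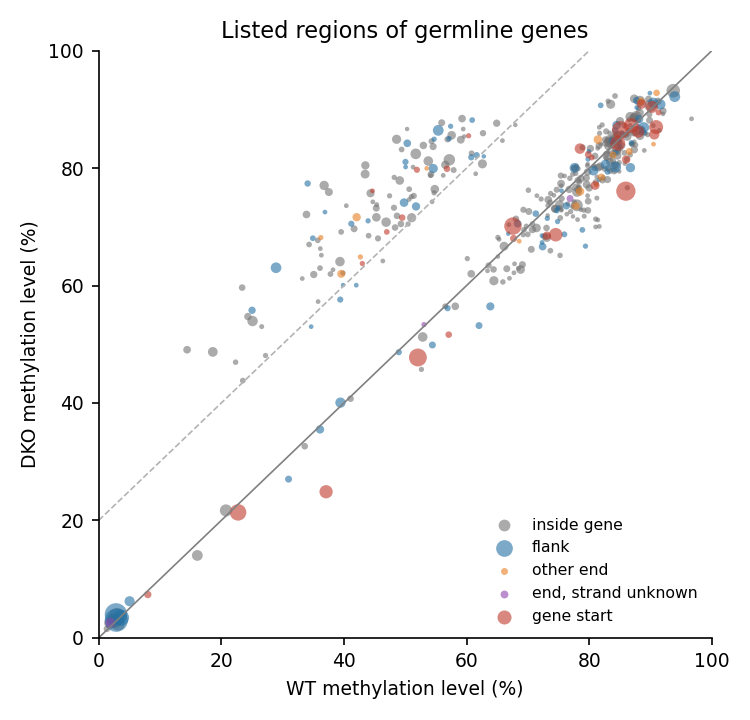
WT (x axis) against DKO (y axis) methylation level in percent for each of the 441 listed regions of the germline genes, coloured by place. The regions far above the diagonal begin at intermediate WT levels, and those at high WT levels, at gene starts and elsewhere, lie along it. A region above 80% in WT cells could not be 20 points higher.

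**Figure D5:**
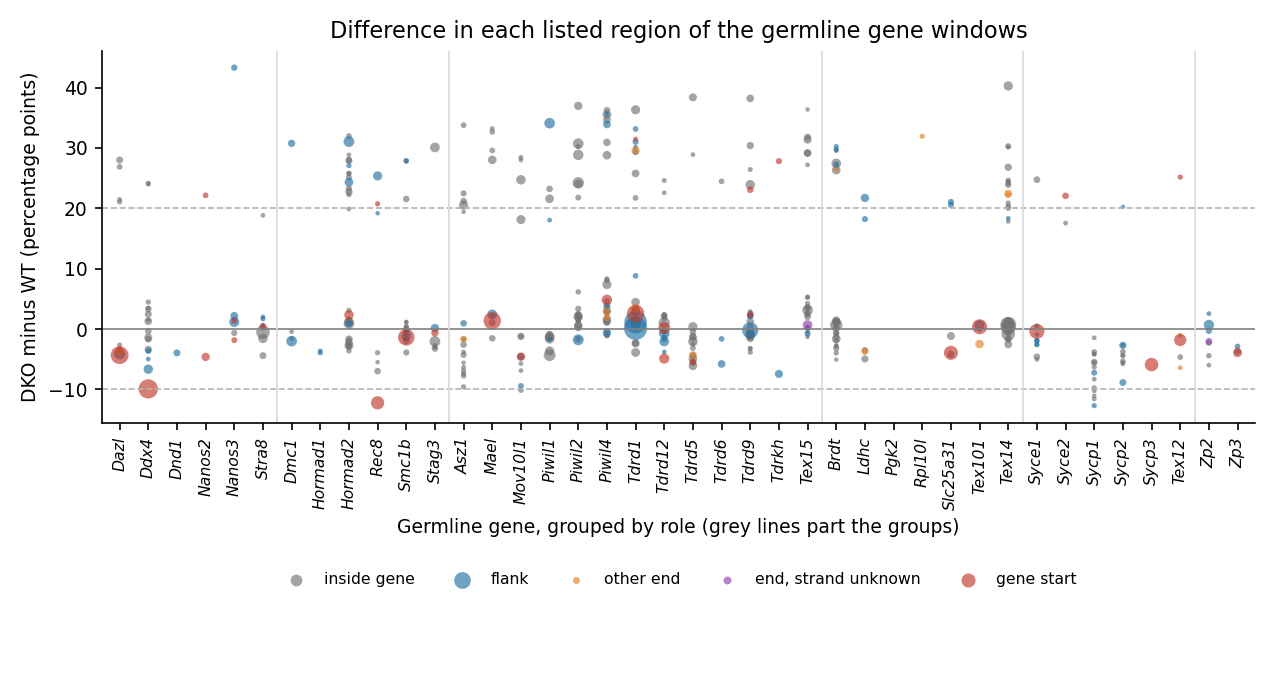
DKO minus WT difference (percentage points) of each listed region (y axis), by gene (x axis) and coloured by place, with the bounds of 20 points higher and 10 points lower. Tex14 and Hormad2 hold 13 gains each, and all 14 regions of Sycp1 lie below 0.

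Among genes of germ cell specification and RNA regulation, 4 of 6 held a gain (66.7%, against 64.4% of all genes). Nanos3, an RNA-binding protein that maintains primordial germ cells, had the largest difference of any germline gene in the authors' deposited table, from 34.1% in WT cells to 77.4% in DKO cells (43.3 points, 9 positions). This region, at chromosome 8, 84181370 to 84181949, lies 4818 bp upstream of the start, while 2 short regions at the start of Nanos3 were at 91.3% and 89.5%, and at 80.4% and 81.8%. Nanos2, which maintains the male germ line, was at 47.0% and 69.1% in 6 positions 569 bp upstream of its start, and at 73.1% and 68.5% in a region of 20 positions downstream of the start. Dazl held 4 gains in a run inside the gene, 4501 to 7223 bp after the start, the largest from 41.7% to 69.7% at chromosome 17, 50287101 to 50288135. Ddx4 held 2 short ones 33215 to 33681 bp after the start, from 50.6% to 74.7% and from 51.0% to 75.1%. Stra8, the retinoic acid-induced gene of meiotic entry, reached 18.8 points in 2 positions, and Dnd1, an RNA-binding partner of Nanos proteins, had 1 region of 31.0% and 27.0% 3920 bp from the gene.

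All 13 genes of the piRNA pathway held a gain, against 64.4% of all genes, and mean coverage of their windows was 3.10%, against 2.67% over all genes. By region, 54 of their 203 listed regions (26.6%) were gains, against 26.5% in the windows of all genes. Their median length was 49009 bp, against 24899.5 bp for all germline genes, with a median of 16 listed regions per gene. PIWI proteins bind piRNAs, small RNAs that silence transposons. In Piwil4 there were 7 gains, with the lowest WT level of any germline gain, from 14.4% to 49.1% at chromosome 9, 14706018 to 14706269, and the largest next to it, from 23.4% to 59.7%. Piwil2 also had 7, all inside the gene, the largest from 43.5% to 80.5% over 20 positions (chromosome 14, 70376447 to 70377216). The other gains of Piwil2 began between 25.1% and 57.9% in WT cells and reached 54.0% to 82.4%. Among them was 1 of 44 positions, the most of any germline gain, from 57.2% to 81.4%. Piwil1 had 3, the largest from 28.9% to 63.0% over 37 positions ending 2433 bp upstream of the start.

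Tudor-domain genes, whose proteins bind the methylated arginines of PIWI proteins, held gains of many sizes in the authors' deposited table. Tdrd1 held 9, from 48.6% to 84.9% in the largest (chromosome 19, 56835221 to 56835726). Its others included a run of 3 beyond the far end, from 50.1% to 80.2%, from 50.05% to 81.1% and from 34.9% to 68.1%. Tdrd9 held 5, the largest from 33.9% to 72.1% in a region over Rd3l. Tdrd5 went from 37.5% to 75.9%, Tdrkh from 51.9% to 79.7%, Tdrd12 from 54.1% to 78.7% and Tdrd6 from 44.0% to 68.5%. Tdrkh, Tdrd9 and Tdrd1 held theirs, or 1 of theirs, within 1 kb of the gene start. Tex15, which links piRNAs to DNA methylation, held 6 gains, the largest a single position from 50.3% to 86.7%. This position lay between longer regions of 12 and 13 positions that went from 55.9% to 87.7% and from 54.6% to 83.7%. Asz1, of mitochondrial piRNA processing, held 4, the largest from 49.4% to 83.2%. Mael held 4, the largest from 40.4% to 73.6%, in a run 6340 to 9575 bp after the start. Mov10l1, the piRNA helicase, held 3 gains, the largest from 45.4% to 73.8%, and 1 loss in 5 positions, from 75.3% to 65.1% (chromosome 15, 89038738 to 89039025).

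The synaptonemal complex joins homologous chromosomes in meiosis. Its genes had the lowest coverage among the groups with gains, a mean of 0.62%, against 2.67% over all genes. Gains lay in 4 of 6 (66.7%, against 64.4% of all genes). Sycp1, the transverse filament protein, held 14 listed regions of 53 positions in all, and all 14 were lower in the DKO. Of all germline regions 198 of 441 were lower, against 128984 of 285218 in the windows of all genes. The Sycp1 regions included 4 losses of at least 10 points. Of these losses, 3 were neighbouring pairs of positions 2924 to 3965 bp after the start, with the same spread estimate of 3.62 points. There the WT lay between 81.1% and 81.7% and the DKO between 70.0% and 71.2%. The other was in the flank, from 79.4% to 66.7%, and the nearest regions outside the bound were -9.74 (Sycp1) and -9.91 (Ddx4), with Mov10l1 at -10.1 and Sycp1 at -10.2 just inside. In Sycp2, the lateral element partner of Sycp3, 9 of 10 regions were lower, the lowest at -8.85 points, and 1 was higher, a single position from 39.9% to 60.1%. Syce1, Syce2 and Tex12, of the central element, each held 1 gain, from 54.2% to 78.9%, from 49.5% to 71.6% and from 60.3% to 85.5%. The last lay at the start of Tex12 over Il18, 744 bp from its transcript start, and the promoter beside it differed by -1.81 points.

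Among genes of meiotic cohesin, HORMA proteins and recombination, 5 of 6 held a gain (83.3%, against 64.4% of all genes). Hormad2, which monitors synapsis, had 13, between 35.7% and 64.9% in WT cells, the largest from 35.7% to 67.7%. The largest lay in a run of 4 near the far end of the gene that began at 35.7% to 48.2% and reached 62.1% to 73.3%. Dmc1, the meiotic strand-exchange recombinase, went from 25.02% to 55.8% in 14 positions 3123 bp upstream of its start (chromosome 15, 79608282 to 79608503). Stag3 had 1, from 18.6% to 48.7% in 30 positions that also lie over Gpc2. Smc1b had 3, the largest from 57.1% to 85.0%, of which 1 lies over Fam118a and another over Ribc2. Rec8 held a gain and a loss near its start. A region of 4 positions 593 bp upstream went from 43.0% to 63.8%, and the promoter region went from 37.1% to 24.9%. A larger gain of Rec8, from 54.6% to 79.9% in 26 positions, lay 4191 bp upstream. Hormad1 had only 2 regions, both downstream of the gene, at -3.61 and -3.94 points.

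In spermatocyte and spermatid genes, 5 of 7 held a gain (71.4%, against 64.4% of all genes). Tex14, needed for the bridges between germ cells, had 13 gains among 37 regions, the largest from 36.8% to 77.1% (40.3 points, chromosome 11, 87439549 to 87440109). Brdt, a testis bromodomain protein, had 7, with 4 of them in a run beyond its far end, the largest from 54.7% to 84.9%. The other 3 of Brdt lay inside the gene, from 53.8% to 81.2%, from 45.3% to 71.6% and from 44.7% to 74.3%. Slc25a31, a testis ADP/ATP carrier, had 2 gains upstream, of 21.1 and 20.6 points, and was at 90.9% in WT cells and 87.0% in DKO cells in 69 positions near its start. Rpl10l, a retrogene of a ribosomal protein, had a single listed region, from 36.2% to 68.2%. Ldhc, the testis lactate dehydrogenase, went from 51.8% to 73.5% upstream. Tex101 had no gain, and no region was listed for Pgk2. The zona pellucida genes Zp2 and Zp3, which encode egg coat proteins, held no gain and no loss of these sizes, with 10 regions at a median of 87.2% in WT cells and 82.7% in DKO cells.

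Regions of low methylation showed small differences in either direction. By the authors' deposited values, 13 of the 441 germline regions were under 10% in WT cells, and their differences ran from -0.787 to 1.20 points. Of these, 6 lay inside Tex14, between 1.34% and 3.16% in WT cells, among the gains of the same gene, for example 3.02% and 3.73% in 92 positions (chromosome 11, 87447866 to 87449338). A further 4 lay over other protein-coding genes in the windows of Tdrd1, Tdrd9 and Stag3. Tex15 had a region of 30 positions at an end of the gene, strand not given, at 1.89% and 2.56%. The remaining ones were inside Brdt, at 2.12% and 3.32%, and upstream of Nanos3, at 5.04% and 6.23%, 3889 bp from the gene.

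No gain near a start overlapped a promoter window, which is near the background, since only 5.88% of all genes with a listed region there were 20 points higher. Of the 35 genes with a strand, 7 held a gain within 1 kb of the start, namely Nanos2, Rec8, Syce2, Tdrd1, Tdrd9, Tdrkh and Tex12, against 14.4% of 17492 genes. All 7 lay 569 to 972 bp from a transcript start, in 2 to 10 positions. Piwil4 held a gain nearer to a transcript start, 226 bp downstream of a second one inside the gene, from 49.1% to 77.9% in 22 positions. In Tdrd1, Tdrd9, Tex12 and Rec8 the promoter region was listed as well and differed by 2.57, 2.44, -1.81 and -12.2 points. Other listed start regions outside a promoter window, beside those of Nanos2, Nanos3 and Slc25a31 given above, were at 88.6% in WT and 90.9% in DKO cells for Hormad2, 86.0% and 81.5% for Mov10l1, 67.7% and 68.0% for Stra8, and 57.1% and 51.6% for Tdrd5. The Stra8 region lies 1411 bp from the transcript start of its promoter window. A Stra8 region of 64 positions, 269 bp from that transcript start but placed in the gene body, was at 93.7% and 93.2%. Tdrd12 had a second start region, of 33 positions, at 90.6% and 85.7% (difference -4.89, spread estimate 3.46). Stag3 has a further region at the start given by the gene table, upstream of its promoter window, at 8.01% and 7.38%. It lies 7552 bp from the transcript start of that window and also overlaps Gal3st4. The 8 genes with neither a gain nor a loss were Sycp3, Tex101, Hormad1, Stra8, Dnd1, Zp2, Zp3 and Pgk2.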

How the data were processed

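The 2 WT and 2 Tet2/Tet3 DKO whole-genome bisulfite libraries were grouped by the genotype in the labels. Trim Galore, Bismark and the build GRCm38 are named in the submitters' processing notes. For the region caller, its smoothing and its filters, the settings were not given in the sources used here. Per the file headers, the deposited table gives each region a mean methylation level for each group as a fraction, which was multiplied to a percentage here, and a difference and spread estimate on the same scale. Its statistic, deposited as a sum and an extreme value per region, was treated as a score without a fixed scale, and the remaining deposited columns (position, index, direction) are of other kinds.

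Gene positions came from a RefSeq table of GRCm38 without strand or exons. Strand and promoter sequence came from a RefSeq promoter table, which matched 35 of 40 genes, all except Tex15, Tdrd6, Piwil2, Dnd1 and Zp2. Where a region fell within 1 kb of an end it was placed at that end, otherwise in the body or the flank. The test by library, a coverage minimum and leaving out a library were planned and not run, since the table holds group means. The members and lists were chosen with earlier results of these data known. Genes with values are the members past a bound of 20 points higher or 10 points lower and those with a region within 1 kb of the start. Neighbouring genes, and the members Hormad1, Dnd1 and Zp2 outside that rule, were named after their values were seen. The overlap and placement code was checked on simulated intervals. Scripts ran in Python 3.11.15 with pandas 2.3.3, numpy 2.4.6 and matplotlib 3.10.9.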

Additional observations from a re-analysis of the deposited data

How the results depend on the processing

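Of 80 alternatives compared, 73 left a count within 1.5 times or a level within the median spread estimate of 3.64 points. The count of 31 genes with a gain was 20 for gene bodies alone and 16 at 30 points or more. It was 21 with at least 10 positions, a drop that still counted as within 1.5 times. The count of 3 genes with a loss was 6 with 10 kb on either side, 1 with at least 10 positions, 14 at 5 points or more and 0 at 20 points or more. Mean coverage of 1.73% was 0.567% at 30 points or more. The median difference at gene ends, 0.232 points, ranged from -1.59 to 0.261 and changed sign within the spread estimate. Without regions over another coding gene, an alternative chosen after seeing the data, 29 genes held a gain and 3 a loss. No paired analysis was possible because the deposited table holds group means and no value per library. The depth is unknown, so its limit on a level could not be given, and unlisted positions have no level here.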

Other observations

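A comparison list of 55 other germline genes, fixed by name with earlier results known, gave 36 with a region at least 20 points higher in the DKO (65.5%, against 64.4% of all protein-coding genes) and 4 with a region at least 10 points lower (7.27%, against 8.5%) in the authors' deposited table. Of its 466 listed regions, 312 were lower in the DKO, against 128984 of 285218 in the windows of all genes, and the median difference was -2.16 points, against 0.593 for the 40 genes described above. The 4 genes with a loss, chosen after their values were seen, were Nobox, Rnf17, Spata16 and Taf7l. Taf7l, a testis TFIID subunit on the X chromosome, was at 62.0% in WT cells and 51.6% in DKO cells over 94 positions at its start. This difference of -10.3 points had a wide spread estimate of 7.80, and the sex of the animals is not given. Rnf17, a Tudor protein of germ cells, was at 61.5% and 50.6% over 69 positions at an end of the gene.

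The high levels at CpG-rich promoters of the 40 genes were not shown to hold in this list, where only 3 windows of at least 10 CpGs had a listed region. A listed region lay over the promoter window of 7 of these genes. It was at 60% or more in the WT in 4 (57.1%, against 8.28% of all genes with a listed region there). The 4 were Prm2, Fthl17a, Rnf212 and Tdrd7, at 88.4%, 88.1%, 73.9% and 60.8%, and the DKO levels were 86.1%, 87.5%, 69.9% and 53.2%. These windows hold 3, 1, 22 and 4 CpGs, and the spread estimate of the Tdrd7 region was 6.76 points. With at least 10 CpGs, 1 of 3 (Rnf212, and not Msh5 or Mei4) was at 60% or more, against 10 of 14 of the genes described above. CpG-dense regions at the start of Rbm46, Boll and Terb1 were at 16.7%, 14.3% and 1.90% in WT cells. Bmp15, an oocyte growth factor whose window holds 2 CpGs, was at 49.4% and 78.1% over 4 positions. Msh5 and Mei4 were at 3.58% and 7.64% in WT cells and at 3.12% and 6.03% in DKO cells.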
